A study of Mus musculus with 9 samples.

Results

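The 10 genes described here belong to the BCL-2 family, whose proteins decide at the mitochondrial outer membrane whether a cell lives or dies. They were chosen by symbol and role from the 23366 genes of the deposited table: the anti-apoptotic Bcl2, Bcl2l1, Mcl1, Bcl2a1b and Bcl2a1d, the effectors Bax and Bak1, and the BH3-only genes Bcl2l11, Bbc3 and Pmaip1. All 10 had a row. RNA was sequenced in 9 bulk libraries of CD8+ T cells from B16F10 tumours, a transplanted mouse melanoma, 4 from IL27ra KO mice and 5 from WT mice. All carried the strain label C57BL/6, and no treatment beyond the tumour is named. IL27ra KO mice lack the receptor chain that binds interleukin 27. The labels give neither the deleted part of the gene nor the age of the mice, and they do not restrict the deletion to T cells. They also do not say whether each library came from a separate animal, so p-values reflect only how far these libraries scatter, and some of that scatter may be technical.

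In the family, anti-apoptotic proteins hold the effectors and the BH3-only proteins in check. Effectors that escape form pores in the mitochondrion, cytochrome c leaves it, and caspases are activated. In T cells BCL-2 and MCL-1 support survival under the common gamma chain cytokines, BCL-XL and the A1 proteins (from the Bcl2a1 genes) are induced by activation, and BIM (from Bcl2l11) drives the loss of cells after a response. Interleukin 27 acts through JAK kinases and factors that include STAT3.

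The mouse A1 genes Bcl2a1a, Bcl2a1b and Bcl2a1d are near-identical copies on chromosome 9. Their sequences are shown because they set how far the values of each copy can be trusted. In the transcripts of GENCODE M21 (GRCm38), the open reading frames of Bcl2a1a, Bcl2a1b and Bcl2a1d were 519 bases long and differed at 12 positions among the 3 copies. Coding bases 1 to 120 held 7 of these positions, written in capitals:
Bcl2a1a: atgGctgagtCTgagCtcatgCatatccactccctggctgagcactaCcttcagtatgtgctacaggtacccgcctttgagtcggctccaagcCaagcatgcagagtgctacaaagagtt
Bcl2a1b: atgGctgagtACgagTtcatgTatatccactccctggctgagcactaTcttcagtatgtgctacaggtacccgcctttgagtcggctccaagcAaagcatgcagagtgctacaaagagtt
Bcl2a1d: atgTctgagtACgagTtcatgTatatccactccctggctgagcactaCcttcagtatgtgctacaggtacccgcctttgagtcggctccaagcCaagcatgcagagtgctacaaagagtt
Bcl2a1b and Bcl2a1d shared 98.8% of coding bases, and Bcl2a1a shared 98.7% with Bcl2a1d and 97.9% with Bcl2a1b. Of all 50-base windows of the Bcl2a1d transcript, 20.5% occurred in no other copy, against 42.4% for Bcl2a1b and 31.0% for Bcl2a1a. The remaining A1 gene, Bcl2a1c, differed more, with a reading frame of 387 bases and 89.6% of its windows in no other copy. RSEM, which the labels name, divides reads shared between copies by estimate, so the separate values of the copies are uncertain.

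The promoters of the A1 copies are alike as well. The RefSeq windows of Bcl2a1b and Bcl2a1d (GRCm38.p6) aligned over 256 columns with 96.5% identity. The far upstream stretch is printed with the letters that differ, or that stand in 1 copy alone, in capitals, first for chr9:89199023-89199142 on the plus strand and then for chr9:88731937-88732050 on the minus strand:
Bcl2a1b: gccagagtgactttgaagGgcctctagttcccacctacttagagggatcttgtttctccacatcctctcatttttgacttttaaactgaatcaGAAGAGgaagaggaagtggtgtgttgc
Bcl2a1d: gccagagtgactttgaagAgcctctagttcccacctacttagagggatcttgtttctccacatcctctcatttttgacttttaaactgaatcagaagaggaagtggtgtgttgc
RefSeq windows were at hand for 9 of the 10 members, in 14 entries. Motifs were searched on both strands. The STAT letters TTCNNNGAA were in no member's window and in 8.30% of all 32851 windows. The FOXO letters GTAAACA were in windows of Bcl2l11 and Bbc3 and in 3.65% of all windows. FOXO factors are known to bind near both genes, so the surroundings of these matches are shown with the match in capitals, for chr2:128125791-128125837 and chr7:16310074-16310120, both on the plus strand of GRCm38.p6:
Bcl2l11: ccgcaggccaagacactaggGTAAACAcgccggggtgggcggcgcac
Bbc3: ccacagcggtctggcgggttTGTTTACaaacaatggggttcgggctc
The CRE letters TGACGTCA were in no member's window and in 1.79% of all. A match is a description of the letters only.

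The values are TMM-normalized FPKM, a level per transcript length scaled between libraries by the authors. Of 23366 genes, 10374 had a mean of at least 1 FPKM and were tested on log2(FPKM + 1) with limma, with Benjamini-Hochberg adjustment. A difference is IL27ra KO minus WT, and it was called at an adjusted p under 0.05. In all, 440 genes (4.24%) were called, of which 325 (3.13%) had higher levels in IL27ra KO than in WT libraries and 115 (1.11%) had lower levels. Low values in genes with a single transcript implied that 1 fragment in 1 kb of RNA was worth 0.263 to 0.4 FPKM in IL27ra KO and 0.246 to 0.577 FPKM in WT libraries, so Bbc3, near 2 FPKM, rested on few fragments. Il27ra, the targeted gene, had 4.09, 6.50, 5.62 and 7.80 FPKM in the IL27ra KO libraries, against 25.7, 5.14, 15.2, 14.4 and 15.8 FPKM in the WT libraries, here and below in the order of their replicate numbers. The difference was -1.10 (SE 0.34, limma, adjusted p = 0.0996), and -1.42 without the library labelled WT replicate 2 (adjusted p = 0.0035). For Il27ra the library labelled WT replicate 2 thus lay within the IL27ra KO range, and results that turn on it are given also without it. Its macrophage and monocyte markers summed to 207 FPKM, the highest of the WT libraries and below the lowest IL27ra KO library at 374 FPKM. The reason for its Il27ra level was not tested.

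All 15 CD8 T cell markers examined, among them Cd3e and Cd8a, were above 0 in every library. Their summed level was 538, 756, 654 and 1410 FPKM in IL27ra KO libraries and 1166 to 1829 FPKM in WT libraries. Only IL27ra KO replicate 4 reached the WT range. Of the 15 markers, 2 were called lower in IL27ra KO and 0 higher. Macrophage and monocyte markers were present too: 16 of 17 listed symbols had a row, none was at 0 in every library, and all 16 were called higher in IL27ra KO libraries. These summed to 374 to 1160 FPKM in IL27ra KO and 26.6 to 207 FPKM in WT libraries. Melanoma markers summed to 541 to 1274 FPKM in IL27ra KO and 354 to 1162 FPKM in WT libraries. The 9 neutrophil markers summed to 24.4 to 87.6 FPKM in IL27ra KO and 6.99 to 20.1 FPKM in WT libraries. Much of the IL27ra KO sum was Il1b alone, at 31.6, 34.4, 70.84 and 12.15 FPKM. Only 3 of the 9 were above 0 in every library, and Retnlg was at 0 in all. S100a8 and S100a9 were at 0 in most libraries, so these sums say little about neutrophils. In bulk RNA, fewer cells of a type and less RNA per cell cannot be told apart.

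None of the 10 members was called, 0 higher beside 3.13% of all genes tested and 0 lower beside 1.11%, or 4.24% in both directions. At an unadjusted p under 0.05 there were 4 members, Mcl1, Bcl2l11, Bcl2a1d and Bcl2a1b, beside 15.1% of all genes. The libraries of the groups did not overlap for 2 members, Mcl1 and Bcl2l11, beside 6.73% of all genes. Mcl1 was the 1 member with all IL27ra KO libraries higher, beside 4.26% of all genes, and Bcl2l11 the 1 with all lower, beside 2.47%. The median difference of the members was -0.13 on the log2 scale, beside 0.02 for all genes tested, with 8 members below 0 and 2 above.

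**Figure D1:**
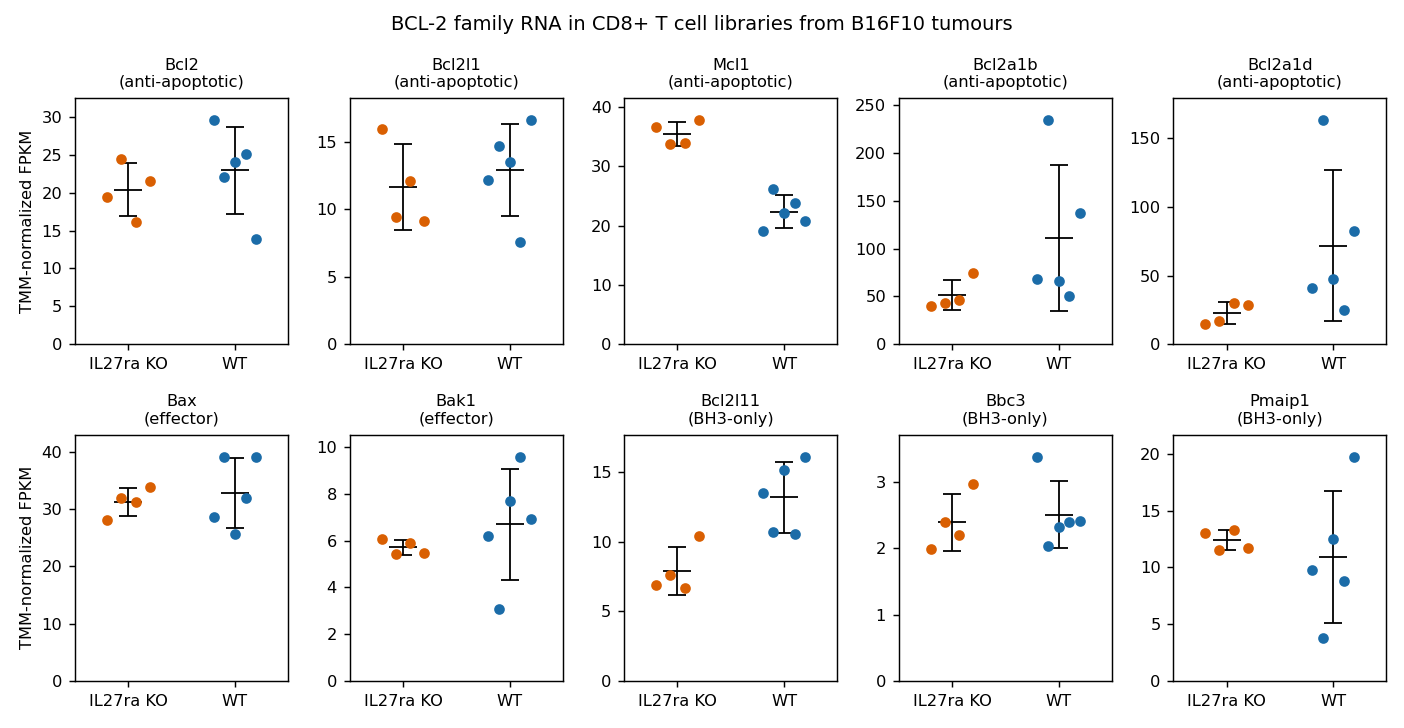
TMM-normalized FPKM (vertical axis, from 0) of each member in 4 IL27ra KO and 5 WT libraries. Points are libraries, and bars show the mean and SD. The 4 IL27ra KO libraries sit above all WT libraries for Mcl1 and below all for Bcl2l11, and WT libraries spread widely for Bcl2a1b and Bcl2a1d.

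The most abundant member per length was Bcl2a1b, with a mean of 51.1 ± 15.7 FPKM in IL27ra KO (SD, n = 4) and 111 ± 76.4 FPKM in WT libraries (SD, n = 5). In IL27ra KO libraries Mcl1, Bax, Bcl2a1d, Bcl2, Pmaip1, Bcl2l1, Bcl2l11, Bak1 and Bbc3 followed in that order. In WT libraries the order after Bcl2a1b was Bcl2a1d, Bax, Bcl2, Mcl1, Bcl2l11, Bcl2l1, Pmaip1, Bak1 and Bbc3. Neighbours in the middle of these orders lay within a spread of each other, such as Bcl2 at 23.0 ± 5.74 and Mcl1 at 22.3 ± 2.73 FPKM in WT libraries.

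Mcl1, an anti-apoptotic gene with a short-lived protein, had 36.5, 33.7, 33.8 and 37.7 FPKM in the IL27ra KO libraries. Its WT levels were 19.0, 26.1, 22.1, 23.7 and 20.7 FPKM. Every IL27ra KO library was above every WT library, and the replicates of each group lay close together. On the log2 scale Mcl1 differed by 0.65 (SE 0.17, 95% interval 0.28 to 1.02) and missed the threshold narrowly (limma, adjusted p = 0.0508). Without the library labelled WT replicate 2, which had the highest WT level, it was 0.70 and passed (limma, adjusted p = 0.0109). It did not pass without any other single library, and the 9 fits that left out 1 library gave differences of 0.60 to 0.70. Quantile normalization (0.68, adjusted p = 0.0264) and library quality weights (0.68, adjusted p = 0.0045) also carried it past the threshold. With equal library medians (0.57, limma, adjusted p = 0.127) and with the replicate numbers as blocks (0.62, limma, adjusted p = 0.260) it did not pass. In all, Mcl1 passed in 7 of 23 alternative settings.

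Macrophage RNA moved with Mcl1 between the groups. The mean log2 level of the macrophage and monocyte markers was 5.05, 4.76, 5.27 and 3.70 in the IL27ra KO libraries, against 0.93, 2.62, 1.06, 1.92 and 2.45 in the WT libraries. IL27ra KO replicate 4, with the lowest marker level of its group, had the highest Mcl1 level of all 9 libraries. It also had the highest CD8 T cell marker sum of its group, at 1410 FPKM. Within that group Mcl1 spanned only 33.7 to 37.7 FPKM, so this order says little. With the macrophage and monocyte marker level added to the fit the Mcl1 difference was 0.49 (SE 0.41, limma, adjusted p = 0.669). The marker levels of the groups did not overlap, so this fit can hardly separate genotype from macrophage RNA. Its SE was 0.41 in place of 0.17, and a lost call in it decides nothing. The same limit holds wherever the macrophage marker level is in the fit.

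**Figure D2:**
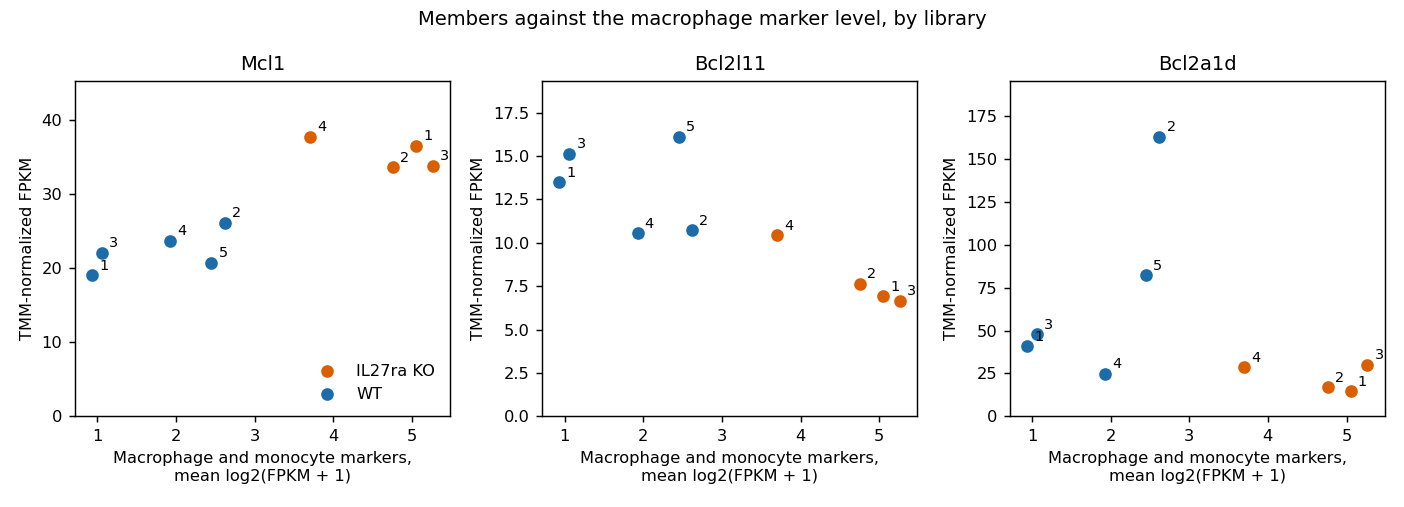
Level of Mcl1, Bcl2l11 and Bcl2a1d (vertical axis, TMM-normalized FPKM, from 0) against the mean log2(FPKM + 1) of macrophage and monocyte markers (horizontal axis) in 4 IL27ra KO and 5 WT libraries, each point numbered by its replicate. IL27ra KO libraries lie between 3.70 and 5.27 on the horizontal axis, and WT libraries lie between 0.93 and 2.62.

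The A1 genes, made by activated lymphocytes and by myeloid cells, had the widest spread of the members among WT libraries. Bcl2a1b had 40.4, 43.3, 46.2 and 74.4 FPKM in the IL27ra KO libraries, against 68.4, 234, 66.0, 50.5 and 137 FPKM in the WT libraries. Bcl2a1d had 14.6, 17.1, 30.0 and 28.6 FPKM in the IL27ra KO libraries and 41.0, 163, 47.8, 24.9 and 82.1 FPKM in the WT libraries. Within WT, the libraries labelled replicates 2 and 5 were the highest for both copies and replicate 4 the lowest, and the groups overlapped.

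The difference of Bcl2a1d was -1.39 (SE 0.43, 95% interval -2.33 to -0.45) and that of Bcl2a1b was -0.91 (SE 0.39, 95% interval -1.75 to -0.07), neither past the threshold (limma, adjusted p = 0.104 and 0.274). Without the library labelled WT replicate 2 they were -1.02 and -0.58, and neither passed (limma, adjusted p = 0.113 and 0.330). Without WT replicate 4 Bcl2a1d passed (-1.69, limma, adjusted p = 0.0295). With the macrophage marker level in the fit the differences were -2.65 for Bcl2a1d and -1.91 for Bcl2a1b (limma, adjusted p = 0.384 and 0.475). Bcl2a1d made up 26.6% to 39.3% of the sum of both copies in IL27ra KO libraries and 33.0% to 42.0% in WT libraries, ranges that overlap.

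Another copy, Bcl2a1a, was listed at 0 in all 5 WT libraries and had 10.9, 3.15, 3.68 and 1.49 FPKM in the IL27ra KO libraries. It was the sole gene called among 7 tested of 16 other BCL-2 family genes (limma, adjusted p = 0.0024), beside 4.24% of all genes tested. Being at 0 in WT, it reached the filter of 1 FPKM through the IL27ra KO libraries alone, so its call is a description only. Its call held without each library in turn. With macrophage markers in the fit it was not called (limma, adjusted p = 0.590), but that fit can hardly separate the markers from genotype. A listed 0 beside abundant near-identical copies can come from the division of shared reads, so no fold is given. The cause of the zeros was not tested. Added over the 4 A1 genes of the table, the level was 63.5 to 105 FPKM in IL27ra KO and 75.4 to 398 FPKM in WT libraries. That sum differed by -0.97 (SE 0.40), short of the threshold (limma, adjusted p = 0.252), and by -0.63 without the library labelled WT replicate 2 (adjusted p = 0.288).

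Bcl2, the survival gene of resting and memory T cells, had 19.5, 24.4, 16.1 and 21.5 FPKM in IL27ra KO libraries and 29.6, 22.1, 24.1, 25.1 and 13.9 FPKM in WT libraries. The groups overlapped, with WT replicate 5 the lowest of all 9. Bcl2l1, which encodes BCL-XL, had 15.9, 9.38, 12.1 and 9.10 FPKM in IL27ra KO libraries and 12.2, 14.7, 13.5, 7.55 and 16.6 FPKM in WT libraries. The differences were -0.14 for Bcl2 (95% interval -0.63 to 0.34, limma, adjusted p = 0.847) and -0.13 for Bcl2l1 (95% interval -0.65 to 0.39, limma, adjusted p = 0.871). Without WT replicate 5 Bcl2 was at -0.30, and without WT replicate 4 Bcl2l1 was at -0.29 (limma, adjusted p = 0.574 and 0.581). Without the library labelled WT replicate 2 they were at -0.14 and -0.075 (adjusted p = 0.809 and 0.916).

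The makeup of the anti-apoptotic RNA varied between libraries mainly through the A1 copies, since the sum of Bcl2, Bcl2l1 and Mcl1 spanned 62.1 to 72.0 FPKM in IL27ra KO and 51.2 to 63.0 FPKM in WT libraries. Bcl2a1b and Bcl2a1d held 43.3%, 47.2%, 55.1% and 60.1% of the summed FPKM of the 5 anti-apoptotic members in the IL27ra KO libraries, against 64.3%, 86.3%, 65.6%, 57.2% and 81.0% in the WT libraries. WT replicate 4 lay inside the IL27ra KO range. Mcl1 held 22.0% to 28.8% in IL27ra KO and 5.68% to 18.0% in WT libraries, which do not overlap. These shares use the member values above and were not tested.

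**Figure D3:**
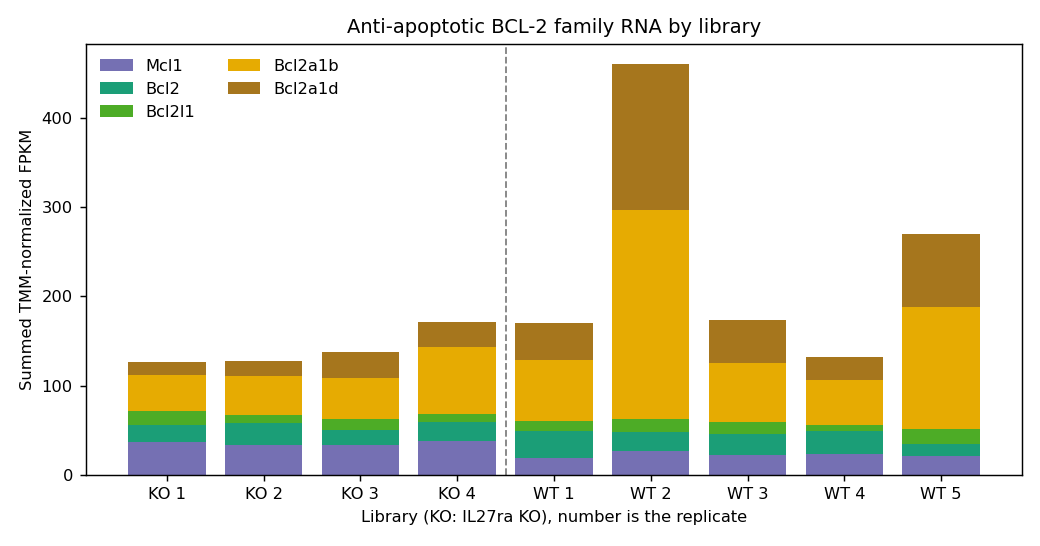
Summed TMM-normalized FPKM (vertical axis, from 0) of Mcl1, Bcl2, Bcl2l1, Bcl2a1b and Bcl2a1d, stacked by library, with IL27ra KO libraries to the left of the dashed line and WT libraries to its right. The sums run from 127 to 171 FPKM in IL27ra KO and from 132 to 460 FPKM in WT libraries, and the tall bars are the libraries labelled WT replicates 2 and 5.

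The effectors, which form the pores, overlapped between the groups. Bax had 28.0, 32.0, 31.2 and 33.8 FPKM in IL27ra KO libraries and 28.6, 39.0, 25.6, 31.9 and 39.1 FPKM in WT libraries. Bak1 had 6.08, 5.41, 5.89 and 5.46 FPKM in IL27ra KO libraries and 6.20, 3.08, 7.70, 9.58 and 6.91 FPKM in WT libraries. The WT libraries spread more widely for both genes, and the library labelled WT replicate 2 had the lowest Bak1 level of all 9. Differences were -0.05 for Bax (95% interval -0.46 to 0.35, limma, adjusted p = 0.937) and -0.13 for Bak1 (95% interval -0.66 to 0.40, limma, adjusted p = 0.871). For Bak1 the difference was -0.34 without the library labelled WT replicate 2 and -0.00029 without WT replicate 4 (limma, adjusted p = 0.322 and 0.999), and for Bax it was 0.012 without the library labelled WT replicate 2 (adjusted p = 0.979).

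Bcl2l11, which encodes the BH3-only protein BIM, had 6.92, 7.65, 6.65 and 10.4 FPKM in the IL27ra KO libraries, against 13.5, 10.7, 15.1, 10.5 and 16.1 FPKM in the WT libraries. The groups did not overlap, though IL27ra KO replicate 4 lay next to WT replicate 4. It differed by -0.67 (SE 0.20, 95% interval -1.10 to -0.24), short of the threshold (limma, adjusted p = 0.0866). It passed without the library labelled WT replicate 2 (-0.74, limma, adjusted p = 0.0440), without IL27ra KO replicate 4 (-0.80, adjusted p = 0.0377) and with library quality weights (-0.80, adjusted p = 0.0055). With the macrophage marker level in the fit it was -0.07 (SE 0.45, adjusted p = 0.962), and scaling to the CD8 T cell markers gave -0.01 (adjusted p = 0.977). That scaling changes all genes of a library by the same factor, and it moved the median of all genes to 0.63. Relative to this median Bcl2l11 was at -0.64 and Mcl1 at 0.72. Subtracting the median largely undoes the scaling, so these values had to lie near the unscaled ones and add no support.

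Ratios within a library set the BH3-only gene against its anti-apoptotic partners. The ratio of Bcl2l11 to Mcl1 was 0.189 to 0.276 in IL27ra KO libraries and 0.410 to 0.777 in WT libraries, without overlap. That separation was fixed in advance, since both genes already separate the groups, in opposite directions. The ratio of Bcl2l11 to Bcl2 was 0.313 to 0.484 in IL27ra KO and 0.420 to 1.15 in WT libraries, and these ranges overlapped. Neither ratio was tested, because both are made of the member values already given.

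Bbc3, which encodes the p53 target PUMA, was the lowest member, with 1.99, 2.40, 2.20 and 2.98 FPKM in IL27ra KO and 3.38, 2.03, 2.33, 2.40 and 2.41 FPKM in WT libraries. Pmaip1, which encodes NOXA, a BH3-only protein that binds MCL-1 and A1, had 13.0, 11.6, 13.3 and 11.7 FPKM in IL27ra KO libraries and 9.79, 3.82, 12.5, 8.83 and 19.7 FPKM in WT libraries. The IL27ra KO libraries lay close together inside the WT range, whose lowest value was that of the library labelled WT replicate 2. The differences were -0.05 for Bbc3 and 0.32 for Pmaip1 (limma, adjusted p = 0.948 and 0.724), with 95% intervals of -0.46 to 0.36 and -0.37 to 1.01. The size of the Pmaip1 difference turned on single WT libraries, being 0.030 without the library labelled WT replicate 2 and 0.56 without WT replicate 5 (limma, adjusted p = 0.965 and 0.418).

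**Figure D4:**
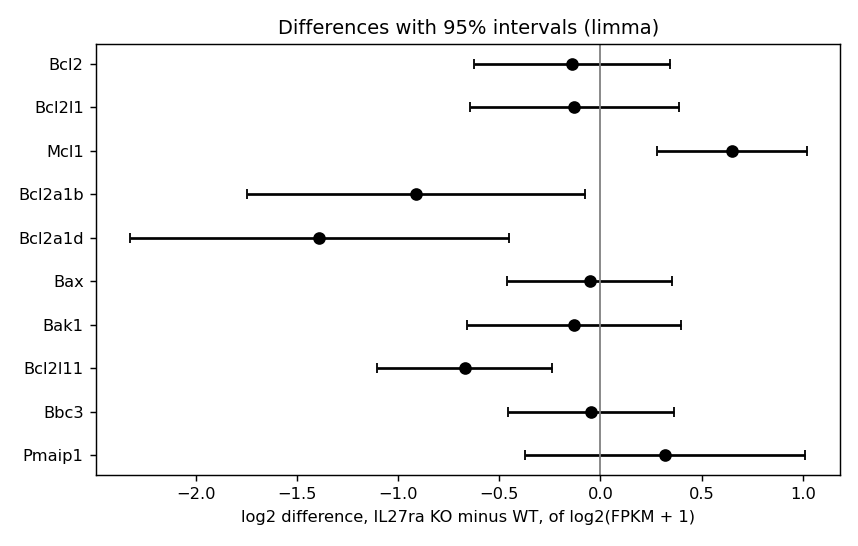
Difference in log2(FPKM + 1), IL27ra KO minus WT (horizontal axis), of the 10 members, with points for the limma estimate from 4 IL27ra KO and 5 WT libraries and bars for its 95% interval. Mcl1 lies above 0 and Bcl2a1b, Bcl2a1d and Bcl2l11 lie below 0 with intervals that exclude 0 before adjustment, and 6 intervals include 0.

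The libraries of IL27ra KO varied less than those of WT for most members. The SD of log2(FPKM + 1) was smaller in IL27ra KO for 9 of 10 members, beside 71.9% of all genes tested, so a smaller spread in this group was common in the table.

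Patterns over the 9 libraries were compared by the root mean square difference of log2 levels, each gene centred on its own mean. The genes nearest to Bcl2a1d were Glipr1 (0.30 log2 units), Gzmb (0.33), which encodes granzyme B, a protease of killer T cells, and Bcl2a1b (0.35). Nearest to Bcl2a1b were Ostf1 (0.20), Psme2 (0.23), an activator subunit of the proteasome, and Psmb9 (0.23), a subunit of the immunoproteasome. Gzmb had 27.8, 43.4, 47.5 and 99.2 FPKM in the IL27ra KO libraries, against 94.0, 349, 74.2, 57.5 and 185 FPKM in the WT libraries. As for Bcl2a1b and Bcl2a1d, the libraries labelled WT replicates 2 and 5 were the highest and IL27ra KO replicate 1 the lowest.

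Among the genes that act after the effectors, Casp9, the initiator caspase, and Apaf1, its scaffold, had differences of 0.38 and -0.12 (limma, adjusted p = 0.526 and 0.855).

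No gene was called of 13 in the death receptor pathway (median 0.18) or of 4 genes of MCL-1 protein turnover (median 0.06). The same held for 15 tested p53 genes and targets, which include Bbc3, Pmaip1 and Bax (median 0.13). Of all genes tested 4.24% were called, so lists this short can readily hold none. In the death receptor pathway the groups did not overlap for 3 genes, Tnfrsf1a, Tnfsf10 and Ripk1, beside 6.73% of all genes. The first encodes a receptor of tumour necrosis factor that myeloid cells also make, and had a mean of 14.0 ± 2.93 FPKM in IL27ra KO and 8.47 ± 0.65 FPKM in WT libraries (SD, n = 4 and n = 5; limma, adjusted p = 0.0649). Trib1, named with Tnfrsf1a after its value was seen, had 7.19 ± 3.29 FPKM in IL27ra KO and 2.50 ± 0.92 FPKM in WT libraries (SD, n = 4 and n = 5; limma, adjusted p = 0.0508).

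Of 25 survival cytokine receptors and factors upstream of the family, 2 were called lower, beside 1.11% of all genes tested. None was called higher, beside 3.13%, and 23 did not pass, with a median of -0.20. Il2rb, the beta chain of the receptors for interleukins 2 and 15, had 49.0, 63.4, 57.5 and 103 FPKM in IL27ra KO libraries and 151, 139, 202, 141 and 210 FPKM in WT libraries (difference -1.33, SE 0.25, limma, adjusted p = 0.0072). Stat3 had 23.3, 27.5, 28.5 and 29.6 FPKM in IL27ra KO libraries and 56.5, 74.1, 58.0, 38.1 and 75.2 FPKM in WT libraries (difference -1.09, SE 0.22, limma, adjusted p = 0.0116). The groups did not overlap for either gene. Without IL27ra KO replicate 1 Stat3 did not pass (limma, adjusted p = 0.0572). Scaling to the CD8 T cell markers moved the median of all genes to 0.63. On that scale Il2rb was at -0.60 and Stat3 at -0.37. Neither passed (limma, adjusted p = 0.110 for Il2rb and 0.297 for Stat3). Nor did they pass with macrophage markers in the fit, where markers and genotype are hard to separate (limma, adjusted p = 0.715 and 0.413). Il7r, the receptor chain for interleukin 7 that sustains Bcl2, had a mean of 35.4 ± 11.0 FPKM in IL27ra KO and 28.7 ± 9.27 FPKM in WT libraries (SD, n = 4 and n = 5; limma, adjusted p = 0.672).

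**Figure D5:**
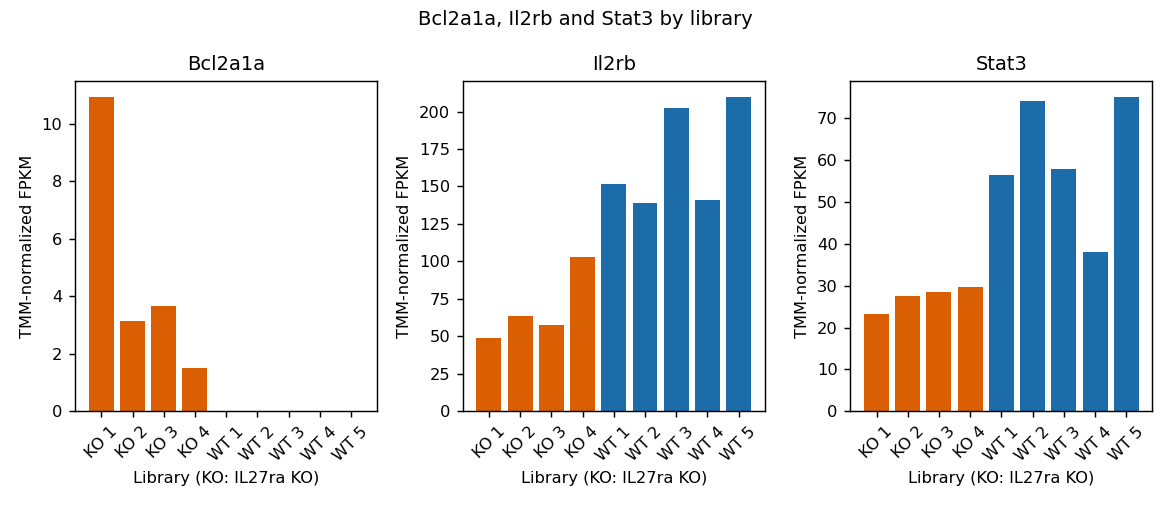
TMM-normalized FPKM (vertical axis, from 0) of Bcl2a1a, Il2rb and Stat3 in each library, IL27ra KO replicates 1 to 4 followed by WT replicates 1 to 5. Bcl2a1a has bars in the 4 IL27ra KO libraries and is listed at 0 in the 5 WT libraries, whereas every IL27ra KO library is below every WT library for Il2rb and Stat3.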

How the data were processed

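Per the labels, the authors deposited gene-level FPKM values from RSEM with TMM normalization, made from SMART-Seq 2 libraries of bulk CD8+ T cells. TopHat, RSEM, DESeq and the build mm9 are named in the submitters' processing notes, without versions, roles or order. The table has 0 columns of other samples. FPKM are not counts, so no count test was used. The 10374 genes whose mean reached 1 FPKM were fitted as log2(FPKM + 1) in limma 3.58.1 under R 4.3.3, using eBayes with a trend, and p-values were adjusted over all of them by Benjamini-Hochberg. The fit was tested on simulated data first. Of 200 genes given a log2 change of 1 it recovered 36.5%, and at a change of 2 it recovered 98.5%. A true difference of 1 or less can thus easily go uncalled. The value of 1 fragment was estimated from 3810 genes with a single GENCODE M21 transcript; of their low values, 66.2% to 70.2% fell within 0.1 of whole multiples, where an even spread gives 20%. Sequences are of GRCm38, another build than mm9, so no coordinates of the measured genes are given beyond those of the printed promoters. The members and lists were chosen with earlier results of these data known. Named genes are all members, Il27ra, up to 5 called genes of each list, and the 3 genes nearest in pattern to the 2 members with the largest differences. Casp9, Apaf1, Tnfrsf1a, Tnfsf10, Ripk1, Trib1 and Il7r were named after their values were seen. The alternatives were other pseudocounts, filters, scalings and fits, the replicate block, a macrophage covariate and each library left out. Leaving out WT replicates 2 and 5 together and summing the A1 copies were alternatives chosen with the values in view. Some results of the lists are not reported here.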

Additional observations from a re-analysis of the deposited data

Results flagged for a closer look

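A gap test for a library far from the rest of its group was run on 22 groups (10 members and Il27ra in each genotype), and chance flags about 1 group in 20. It marked 2 values. Bcl2a1b in IL27ra KO replicate 4, at 74.4 FPKM, stood above the other IL27ra KO libraries (40.4 to 46.2 FPKM). Bbc3 in WT replicate 1, at 3.38 FPKM, stood above the other WT libraries (2.03 to 2.41 FPKM), at a level of few fragments.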

How the results depend on the processing

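The deposited values are no counts, so depth is known only roughly, and Bbc3 rests on few fragments. The 440 genes called (325 higher, 115 lower) became 219 with a filter at 5 FPKM, 974 with library quality weights (632 higher, 342 lower), 1544 on scaling to CD8 T cell markers (1495 higher, 49 lower) and 7 with the macrophage covariate. They were 458 under quantile normalization (291 higher, 167 lower) and 227 to 639 with each library left out. Of the 10 members, 1 passed without the filter, under quantile normalization, with equal totals without Rn45s, on CD8 T cell marker scaling and without WT replicates 2 and 5 together, in each case Mcl1. With library quality weights 3 passed, Mcl1, Bcl2l11 and Bcl2a1d. With each library left out, 0 to 2 passed. In the other settings none passed.

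Signs turned round where a difference was near 0 or the scale moved. On CD8 T cell marker scaling, which moved the median of all genes to 0.63, the log2 differences were 0.56 for Bcl2, 0.56 for Bcl2l1, 0.66 for Bax, 0.49 for Bak1, 0.47 for Bbc3, 0.10 for Ostf1 and 0.14 for Psme2. With the macrophage covariate they were 0.68 for Bcl2, 0.33 for Bak1, 0.53 for Bbc3 and 0.62 for Il27ra. With equal totals without Rn45s Bax was at 0.012, and without WT replicates 2 and 5 together Bcl2l1 was at 0.069 and Bax at 0.12. With each library left out, Bax ran from -0.14 to 0.013 and Bbc3 from -0.13 to 0.037. The cause was not tested.

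Deviations of same-numbered libraries correlated at 0.00, -0.01, -0.07 and -0.15, so the replicate numbers were not taken to pair the libraries. With the replicate block, 273 genes and 0 members passed and Bax was at 0.013; WT replicate 5 stands alone in its block. With the block neither Il2rb nor Stat3 passed (limma, adjusted p = 0.0533 and 0.0794).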
